A study of Mus musculus with 24 samples.

Results

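Msln, Upk3b, Wt1, Lrrn4 and Muc16 are 5 genes used as markers of mesothelium, and they are described here in the skin and dorsal root ganglia (DRG) of a mouse model of rosacea. They were taken by symbol from a table of 45777 genes, selected on the level of Msln in model skin against control skin in these same libraries, and the other 4 were added to see whether Msln was higher with or without them. Their values in skin are therefore given as a description with no test, while the DRG comparison was not part of that choice and is tested. All mice were female BALB/c animals of 6 weeks. The model received LL37, an antimicrobial peptide, by intradermal injection at 320 µM in 40 µL, in 2 doses a day for 2 days. The control group is labelled as control alone, and what it was injected with is not given in the labels. Skin and DRG, which house the cell bodies of sensory neurons, of both groups were sequenced as polyA RNA, with 6 libraries in each of 4 groups: model skin, control skin, model DRG and control DRG. The series text places DRG collection on day 4 and also describes oral gabapentin at 100 mg/kg from day 3. No library label names gabapentin, so which animals received it cannot be told from the labels. The labels do not say whether skin and DRG libraries with the same number came from the same mouse.

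Mesothelium is the flat epithelial sheet that lines the pleural, pericardial and peritoneal cavities, and neither skin nor DRG is lined by it. Msln encodes mesothelin, a surface glycoprotein held by a lipid anchor, which is cut by the protease furin from a precursor that also yields megakaryocyte potentiating factor. Muc16 encodes the large membrane mucin that carries the CA125 antigen and binds mesothelin. Wt1 is a zinc finger transcription factor of mesothelium and kidney podocytes. Upk3b is a uroplakin, a family better known from the plaques of the bladder surface, and Lrrn4 is a membrane protein with leucine-rich repeats.

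In GRCm38, by RefSeq, Msln (gene 56047) lies on chromosome 17 from 25748613 to 25754378 on the minus strand. Upk3b (gene 100647) lies on chromosome 5 from 136038496 to 136044993 on the plus strand. Wt1 (gene 22431) lies on chromosome 2 from 105126529 to 105173614 on the plus strand, and Lrrn4 (gene 320974) on the same chromosome from 132866686 to 132894010 on the minus strand. Muc16 (gene 73732) lies on chromosome 9 from 18495445 to 18674821 on the minus strand. Overlap was checked on GENCODE intervals, which can differ from these and are shorter for Lrrn4 (132868305 to 132880891). On them only Muc16 was overlapped by another annotated gene, Gm25295 on the opposite strand. Upk3b has a close relative, Upk3bl, and the sources used here do not give how the counting treated reads that fit both.

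Total counts per library lay between 45238735 and 68396846 over all 24 libraries. Levels are counts-per-million (CPM) values, a gene's count scaled by the library's total. The tissues carried their own markers: the summed level of 8 keratinocyte genes was 7527 to 25366 CPM in skin libraries and 3.14 to 5.24 CPM in DRG libraries, and the summed level of 5 sensory neuron genes was 4769 to 6803 CPM in DRG libraries. Single libraries weighed on the skin fit: 1137 genes were called lower by edgeR, against 308 without model skin library 4 and 2554 without control skin library 2. In bulk tissue, a change in the number of cells that express a gene and a change in its RNA per cell cannot be told apart.

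Msln was detected in all 6 libraries of both skin groups, and its level in model skin was many times that in control skin. In model skin the 6 libraries had 6.64, 9.92, 4.52, 13.1, 6.03 and 6.55 CPM of Msln, from 253 to 831 counts each. In control skin they had 0.221, 0.427, 0.102, 0.467, 0.201 and 0.179 CPM, from 6 to 27 counts each. All 6 model libraries were above every control library, with model library 4 the highest and model library 3 the lowest of their group. Among all 19526 genes tested in skin, 7.9% had every model library above every control library and 0.866% every model library below. The choice of Msln used that contrast, so nothing is read from the count. The means were 7.79 ± 3.14 CPM in model skin and 0.266 ± 0.146 CPM in control skin (SD, n = 6 each), and the fold change fitted by edgeR was 28.2 (log2 4.82), with a range of log2 4.65 to 5.07 when each library was left out in turn.

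**Figure D1:**
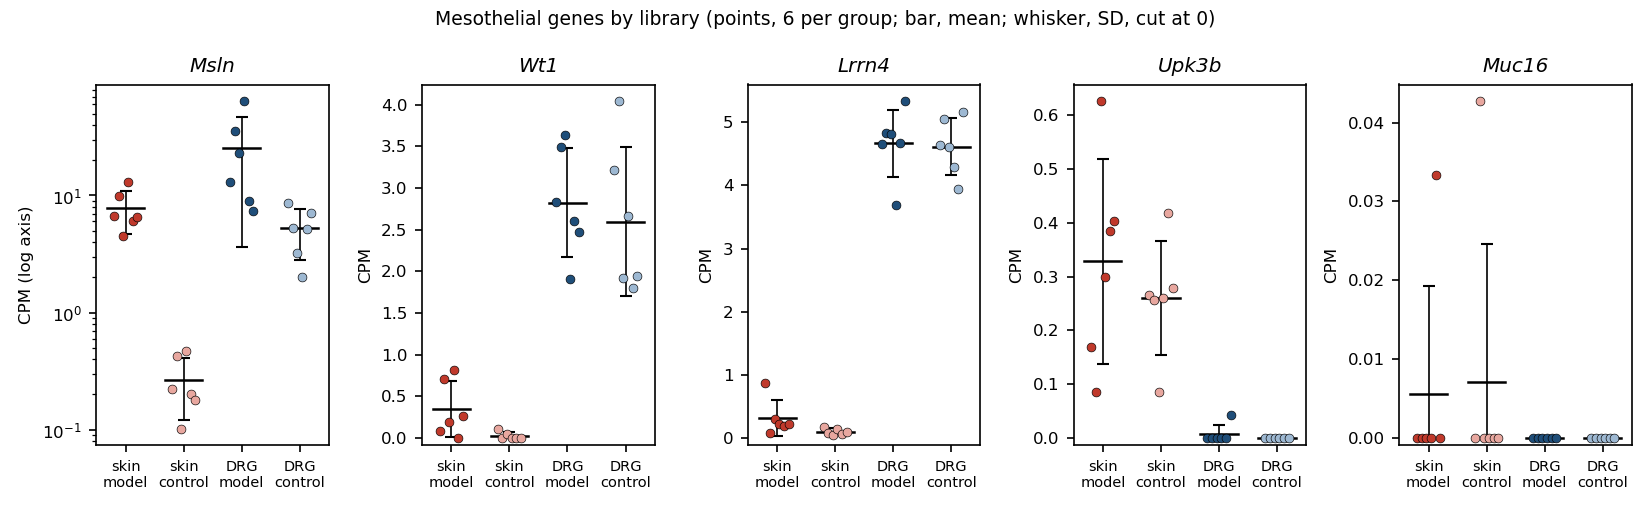
Level of the 5 mesothelial genes in CPM in each library of model skin, control skin, model DRG and control DRG (points, 6 per group; horizontal bar, mean; whisker, SD, stopped at 0; the Msln axis is logarithmic and each panel has its own scale). Msln is 4.52 to 13.1 CPM in model skin and 0.102 to 0.467 CPM in control skin, while the skin levels of Wt1, Lrrn4, Upk3b and Muc16 stay below 1 CPM.

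Wt1, the transcription factor of the set, was near the limit of detection in skin and uneven among the model libraries. The model skin libraries held 4, 33, 11, 52, 0 and 13 counts of Wt1, and the control skin libraries 5, 0, 3, 0, 0 and 0 counts. Model libraries 2 and 4, the libraries with the most Msln, also held the most Wt1, and model library 5 held none although it had 361 counts of Msln. In all, 4 of 6 model libraries were above every control library. The means were 0.345 ± 0.338 CPM in model skin and 0.0269 ± 0.0458 CPM in control skin (SD, n = 6 each), a ratio of 12.8 from totals of 113 and 8 counts, or 9.31 without model library 4. Wt1 did not pass the filter on low counts in skin, so the edgeR fit gave it no fold change. Its antisense gene Wt1os had at most 0.0423 CPM in any skin library. On GENCODE intervals no annotated gene overlapped Wt1. The sources used here do not give the strand setting or how the counting separated reads of Wt1 and Wt1os.

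Lrrn4 was also low in skin and did not pass the filter there. The model skin libraries had 0.867, 0.0859, 0.304, 0.220, 0.184 and 0.222 CPM of Lrrn4, from 41, 4, 17, 14, 11 and 11 counts. The control skin libraries had 0.177, 0.0854, 0.0510, 0.138, 0.0620 and 0.0994 CPM, from 8, 4, 3, 8, 4 and 5 counts. The first model library stood far above the rest, and 5 of 6 model libraries were above every control library, the exception being model library 2, which had the second highest Msln. The means were 0.314 ± 0.280 CPM in model skin and 0.102 ± 0.0478 CPM in control skin (SD, n = 6 each), a ratio of 3.07, which was 1.99 without model library 1.

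Upk3b did not separate the skin groups. The model skin libraries had 0.169, 0.0859, 0.626, 0.299, 0.384 and 0.404 CPM of Upk3b, and the control skin libraries 0.265, 0.256, 0.0850, 0.259, 0.418 and 0.278 CPM. Only model library 3 was above every control library, and it had the lowest Msln of its group. The means were 0.328 ± 0.191 CPM in model skin and 0.260 ± 0.106 CPM in control skin (SD, n = 6 each), and the edgeR fold change was 1.23 (log2 0.30). Leaving out each library in turn moved that log2 value between 0.03 and 0.51.

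Muc16, the binding partner of mesothelin, was barely detected in skin. Model skin held 2 counts in all, both in library 5, and control skin held 2 counts, both in library 2. A floor of 3 counts over a group corresponds to 0.00930 CPM in model skin and 0.00927 CPM in control skin, and such floors cover counting error only. Both groups were under it, so no fold is given. In skin, Msln thus differed 28.2-fold between the groups while Upk3b differed 1.23-fold, and Muc16 was not detectable beyond 2 counts a group. Wt1 and Lrrn4 were below 1 CPM in every skin library, as was Msln in control skin. The ratio of mean CPM, model over control, was 12.8 for Wt1 and 3.07 for Lrrn4, both from low counts. Msln was therefore not the only member with a higher mean in model skin.

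In DRG the members had other levels and the model comparison could be tested for 3 of the 5. Among 19509 genes tested in DRG, 0.0974% were called higher by edgeR with p adjusted after Benjamini and Hochberg (BH) at a threshold of 0.05, and 0 genes were called lower. At an unadjusted p under 0.05, 1093 genes (5.6%) lay higher and 729 (3.74%) lower, and DESeq2 called 127 higher and 15 lower. Of the members, 0 of 3 tested were called by edgeR, 1 had an unadjusted p under 0.05, and DESeq2 called 1, in each case Msln. limma, on log2 TPM with pseudocounts of 1 and 0.1, called none of them.

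The model DRG libraries had 13.1, 35.6, 23.2, 64.3, 8.96 and 7.38 CPM of Msln, and the control DRG libraries 8.62, 5.22, 3.25, 2.01, 5.16 and 7.14 CPM. All model libraries except library 6 were above every control library, and model libraries 4 and 2 were the highest, numbers that were also highest for Msln in skin. The means were 25.4 ± 21.8 CPM in model DRG and 5.23 ± 2.43 CPM in control DRG (SD, n = 6 each). The log2 fold change was 2.26 with an approximate standard error (SE) of 0.56, a fold of 4.80, and it did not pass the adjusted threshold in edgeR (BH-adjusted p = 0.295). DESeq2 gave the same log2 fold change with a BH-adjusted p of 0.0149, while over the other alternatives the adjusted p lay between 0.111 and 0.884. Leaving out each library in turn gave log2 fold changes between 1.74 and 2.45, the lowest without model library 4.

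Wt1 was readily measured in DRG and did not differ between the groups beyond their spread. The model DRG libraries had 2.84, 3.49, 3.64, 1.91, 2.60 and 2.47 CPM of Wt1, and the control DRG libraries 3.21, 4.04, 1.92, 2.66, 1.79 and 1.95 CPM. The ranges overlapped almost wholly, and model library 4, with the most Msln, had the lowest Wt1 of its group. The log2 fold change was 0.11 with an approximate SE of 0.22 (edgeR, BH-adjusted p = 0.905).

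Lrrn4 also did not differ between the DRG groups beyond their spread. It had 4.65, 4.83, 4.81, 3.70, 4.67 and 5.33 CPM in the model DRG libraries, and 4.64, 5.05, 4.61, 4.29, 3.95 and 5.16 CPM in the control DRG libraries. Model library 4 again had the lowest level of its group. The log2 fold change was 0.0026 with an approximate SE of 0.10 (edgeR, BH-adjusted p = 0.997), and its sign changed with the library left out.

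Upk3b and Muc16 did not pass the filter in DRG. Upk3b had 2 counts in model DRG, both in library 6, and 0 counts in control DRG, where a floor of 3 counts over the group is 0.00864 CPM. Muc16 had 0 counts in all 12 DRG libraries, which allows up to 0.00872 CPM in model DRG and 0.00864 CPM in control DRG.

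Ordered by mean CPM, Msln was highest in model DRG, then model skin, control DRG and control skin. Neighbours among the first 3 overlapped library by library (7.38 to 64.3 CPM in model DRG, 4.52 to 13.1 in model skin and 2.01 to 8.62 in control DRG), and only control skin, at 0.102 to 0.467 CPM, lay apart. Between genes, levels are compared in transcripts-per-million (TPM) values, which divide by transcript length. In model skin the mean TPM was 7.54 ± 3.11 for Msln, 0.330 ± 0.202 for Upk3b, 0.231 ± 0.229 for Wt1, 0.118 ± 0.103 for Lrrn4 and 0.000448 ± 0.00110 for Muc16 (SD, n = 6). In control skin Msln and Upk3b lay together at 0.243 ± 0.137 and 0.259 ± 0.111 TPM. In model DRG Msln had 30.2 ± 26.0 TPM, while Lrrn4 and Wt1 had 2.35 ± 0.378 and 2.32 ± 0.536 TPM, which did not differ beyond their spread. In control DRG Msln was at 6.05 ± 2.85 TPM, Lrrn4 at 2.30 ± 0.376 TPM and Wt1 at 2.07 ± 0.714 TPM.

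The 22 genes of a wider list of mesothelial genes, none of them a member, were tested in both tissues where they passed the filter. The list was chosen with earlier results of these data known, so its calls and p-values are given as a description. In skin 5 of the 21 tested were called higher (edgeR, BH-adjusted p under 0.05) and 0 lower, beside 14.1% of all genes tested that were called higher, 5.82% called lower and 19.9% called in either direction. At an unadjusted p under 0.05, 8 of the 21 lay higher and 2 lower, beside 20.3% and 15.1% of all genes tested in skin. DESeq2 called 5 higher and 1 lower, and limma 5 higher and 0 lower with either pseudocount. The median log2 fold change of the list was 0.17, beside -0.02 over all genes. Most of these genes are also used by other cells: in control skin 19 of the 22 had a mean of at least 1 CPM. Without control library 5 the list had 3 genes called higher, and without control library 2 it had 2 called lower.

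Cldn15, a claudin of tight junctions, had 24.5, 11.9, 13.6, 10.7, 5.73 and 9.92 CPM in the model skin libraries and 4.40, 3.44, 4.25, 4.10, 4.15 and 4.57 CPM in the control skin libraries. The groups did not overlap, and its highest library was model library 1, not one of those with the most Msln. Cldn15 rose by a log2 fold change of 1.59 with an approximate SE of 0.29 (edgeR, BH-adjusted p = 0.00287).

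Prg4, lubricin, a secreted proteoglycan of joints and serosal surfaces, had 31.0, 33.1, 9.69, 65.3, 11.99 and 20.6 CPM in the model skin libraries and 10.3, 2.75, 2.02, 12.7, 3.10 and 1.61 CPM in the control skin libraries. In 4 of 6 model libraries Prg4 was above every control library, with model libraries 4 and 2 the highest as for Msln. It rose 5.09-fold (log2 2.35, approximate SE 0.62; edgeR, BH-adjusted p = 0.0209) and passed in 11 of 12 fits that each left out 1 library.

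The remaining 3 genes rose by smaller amounts. Tbx18, a T-box transcription factor of epicardium and mural cells, averaged 4.85 ± 1.19 CPM in model skin and 2.26 ± 0.726 CPM in control skin (SD, n = 6 each), with all 6 model libraries above every control library (log2 1.07, approximate SE 0.22; edgeR, BH-adjusted p = 0.00638). Efemp1, the matrix protein fibulin-3, averaged 88.3 ± 28.7 CPM in model skin and 41.7 ± 10.7 CPM in control skin, again without overlap (log2 1.05, approximate SE 0.22; edgeR, BH-adjusted p = 0.00683). Pdpn, podoplanin, a surface glycoprotein of mesothelium and lymphatic endothelium, averaged 38.0 ± 17.9 CPM in model skin and 18.9 ± 5.90 CPM in control skin, with 3 of 6 model libraries above every control library (log2 0.96, approximate SE 0.28; edgeR, BH-adjusted p = 0.0339). Cldn15, Tbx18 and Efemp1 passed in all 12 fits that left out 1 library, and Pdpn in 6 of them.

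Among the 16 tested genes of the wider list that edgeR did not call in skin were several of its epithelial genes. Krt19, a keratin of simple epithelia, had 23.7 CPM in model skin library 1 and 1.07 to 1.54 CPM in the other 5, against 0.790 to 2.01 CPM in control skin (edgeR, log2 2.15, BH-adjusted p = 0.0926). Upk1b, a tetraspanin that pairs with uroplakin 3 proteins, lay the other way. The model skin libraries had 0.233, 1.74, 1.11, 0.173, 0.718 and 1.09 CPM of Upk1b, and the control skin libraries 3.32, 0.0640, 3.74, 2.66, 3.98 and 3.78 CPM. Control library 2 alone lay below every model library, and the other 5 control libraries lay above all of them. The log2 fold change of Upk1b was -1.85 with an approximate SE of 0.71 (edgeR, BH-adjusted p = 0.0835), and it passed without control library 2 at -2.11 (BH-adjusted p = 0.00787). Without that library Bnc1, a zinc finger protein, was also called lower.

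**Figure D2:**
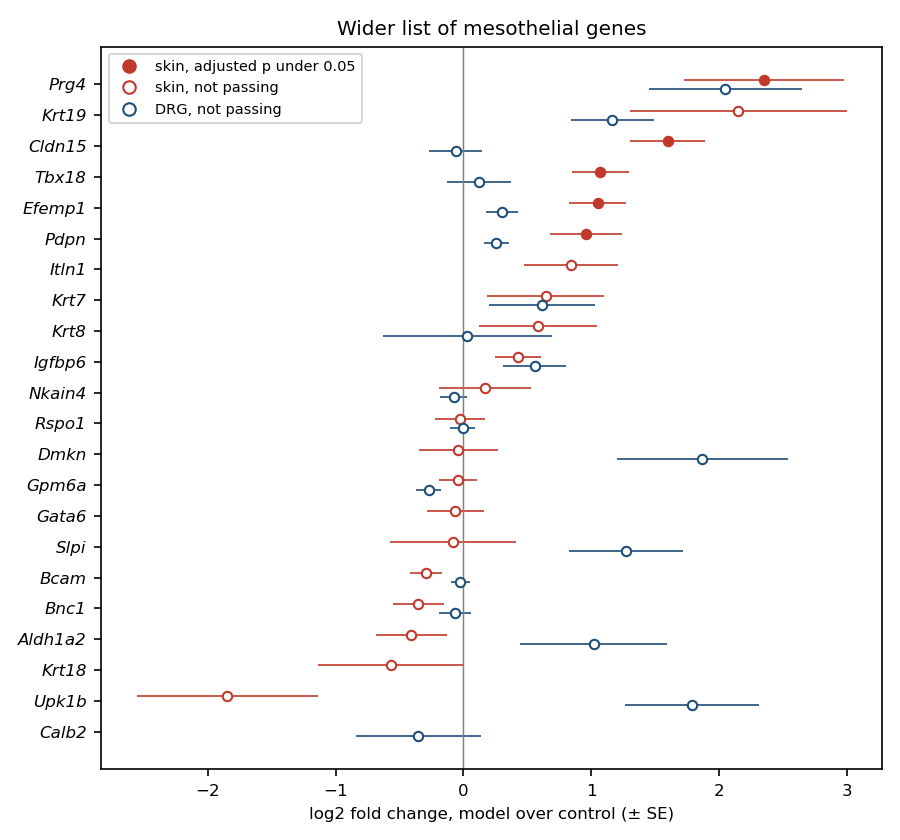
Log2 fold change, model over control (horizontal axis; points, edgeR estimates; bars, approximate SE), of the genes of the wider mesothelial list that were tested in skin (red) and in DRG (blue); filled points have a BH-adjusted p under 0.05. Prg4, Cldn15, Tbx18, Efemp1 and Pdpn are filled in skin, no point is filled in DRG, and Upk1b lies at -1.85 in skin and 1.79 in DRG. The list was chosen with earlier results of these data known.

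In DRG 0 of 19 tested genes of the wider list were called in either direction by edgeR, beside 0.0974% of all genes called higher. At an unadjusted p under 0.05, 8 of them lay higher and 1 lower, beside 5.6% and 3.74% of all genes tested in DRG. DESeq2 called 1 higher, Upk1b, and limma 0. The median log2 fold change of the list was 0.26, beside -0.01 over all genes. Upk1b had 1.14, 4.06, 2.55, 7.14, 1.17 and 0.816 CPM in the model DRG libraries and 1.14, 0.977, 0.446, 0.363, 0.928 and 0.981 CPM in the control DRG libraries. Its highest libraries were model 4, 2 and 3, the same numbers as for Msln (edgeR, log2 1.79, approximate SE 0.52, BH-adjusted p = 0.422). Prg4 had 46.4, 138, 102, 261, 46.4 and 33.7 CPM in the model DRG libraries and 44.2, 18.5, 15.7, 4.99, 33.8 and 33.1 CPM in the control DRG libraries. It shared the order of the 3 highest libraries with Msln and did not pass either (edgeR, log2 2.05, approximate SE 0.59, BH-adjusted p = 0.422). The control libraries also differed among themselves, with library 4 the lowest for Msln, Upk1b and Prg4 alike.

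The model effect of 2 of the 18 genes of the list tested for it differed between the tissues in 1 edgeR fit of all 24 libraries, a test chosen after the data were seen that called 17.1% of the 17251 genes tested. The skin effect minus the DRG effect was -3.68 on the log2 scale for Upk1b (BH-adjusted p = 0.00791) and 1.60 for Cldn15 (BH-adjusted p = 0.00472). For Prg4 the difference was 0.26 (BH-adjusted p = 0.862).

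Relatives and partners of the members formed a list of 19 genes, also chosen with earlier results known and given as a description. In skin 13 of them were tested. There 1 was called higher and 3 lower (edgeR), beside 14.1% and 5.82% of all genes tested in skin. The median log2 fold change of the list was -0.21. Lrrn4cl, a short relative of Lrrn4, rose to 13.9 ± 1.53 CPM in model skin, against 8.89 ± 1.82 CPM in control skin (SD, n = 6 each), with all 6 model libraries above every control library (log2 0.61, approximate SE 0.15; edgeR, BH-adjusted p = 0.0138). Muc15, a membrane mucin, fell to 49.5 ± 11.4 CPM in model skin, against 77.1 ± 8.51 CPM in control skin (log2 -0.68; edgeR, BH-adjusted p = 0.00575). Lrrn2, another relative of Lrrn4, averaged 2.88 ± 0.903 CPM in model skin and 6.07 ± 2.70 CPM in control skin (log2 -1.11; edgeR, BH-adjusted p = 0.0410). Upk1a, a uroplakin tetraspanin, averaged 1.23 ± 0.389 CPM in model skin and 2.31 ± 0.926 CPM in control skin (log2 -0.95; edgeR, BH-adjusted p = 0.0459). Lrrn2 passed in 4 and Upk1a in 3 of the 12 fits that left out 1 library, while Lrrn4cl and Muc15 passed in all 12.

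The processing protease and the nearest relative of mesothelin did not pass in skin. Furin averaged 141 ± 11.8 CPM in model skin and 130 ± 20.3 CPM in control skin (edgeR, log2 0.07, BH-adjusted p = 0.650). Mslnl, mesothelin-like, averaged 0.250 ± 0.179 CPM in model skin and 0.416 ± 0.274 CPM in control skin (edgeR, log2 -0.78, BH-adjusted p = 0.415). In DRG 0 of 12 tested genes of this list were called by edgeR or limma, 2 had an unadjusted p under 0.05 and lay higher, and DESeq2 called 1, Upk1b. Upk1b is also in the wider mesothelial list, so this is the call already given there.

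Of 7 genes described as targets of the WT1 protein, 5 were tested in skin and 1 was called higher (edgeR), with a list median of log2 0.07. Over all genes tested in skin, 14.1% were called higher. This list too was chosen with earlier results of these data known and is given as a description. Podxl, podocalyxin, a surface sialomucin of podocytes and vessels, averaged 31.1 ± 4.77 CPM in model skin and 20.8 ± 4.37 CPM in control skin (SD, n = 6 each; edgeR, log2 0.55, BH-adjusted p = 0.0249), and passed in 8 of 12 fits that left out 1 library. The other 4, Areg, Spry1, Gas1 and Amhr2, did not pass. In DRG 0 of 7 were called by edgeR, DESeq2 or limma, and 1 had an unadjusted p under 0.05.

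Muscle genes lay alongside Msln in skin. Ranked by Pearson correlation with Msln of log2(CPM + 0.1) over the 12 skin libraries, the first 8 of 14529 genes were Myl4 (r = 0.996), Mymx (0.987), Actc1 (0.985), Chrng (0.984), Myh3 (0.983), Mymk (0.982), Myog (0.978) and Gap43 (0.975). Myl4, Myh3 and Actc1 encode embryonic or cardiac forms of contractile proteins, Chrng the fetal subunit of the acetylcholine receptor, Mymk and Mymx the fusion proteins of myoblasts, and Myog a muscle transcription factor. These correlations carry the difference between the 2 groups, share the libraries and their depth, and are given as a description. Myl4 had 16.6, 22.6, 12.7, 25.1, 12.9 and 11.5 CPM in the model skin libraries and 1.22, 1.84, 1.02, 2.04, 1.29 and 1.05 CPM in the control skin libraries. The order of the libraries was close to that of Msln within each group, with library 4 then library 2 highest in both. After centring each gene on its group means, the 8 highest correlations were with Trim35 (0.921), Myl4 (0.921), Serpinb1a (0.902), Osbpl9 (0.901), Xpnpep2 (0.900), Calu (0.899), Chrna1 (0.895) and Fkbp10 (0.894).

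Genes of the wider mesothelial list ranked lower on the same scale in skin. The members Wt1, Lrrn4, Upk3b and Muc16 averaged under 1 CPM in both skin groups and were left out of this ranking, so their likeness to Msln was not compared. Tbx18 was at rank 775 (r = 0.906), Efemp1 at 1126 (0.877), Prg4 at 1343 (0.859), Cldn15 at 1753 (0.819) and Pdpn at 2137 (0.778), while Upk1b was at 12498 (-0.56).

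**Figure D3:**
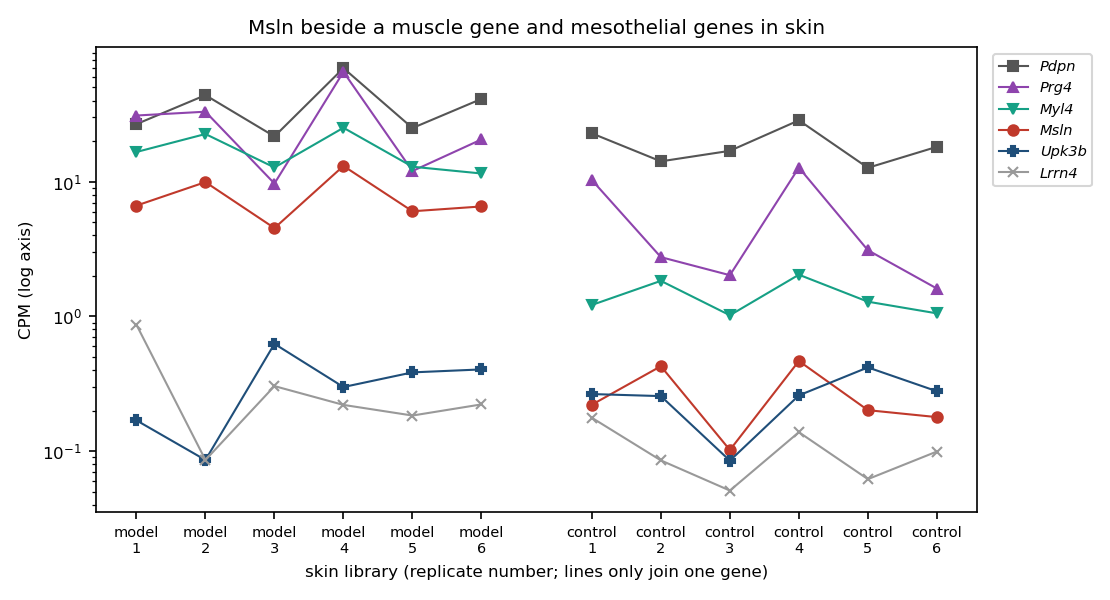
CPM on a logarithmic axis in each of the 12 skin libraries, model left and control right, for Msln, the muscle gene Myl4, the wider-list genes Prg4 and Pdpn, and the members Upk3b and Lrrn4; lines only join points of 1 gene. Msln and Myl4 have their highest points at model libraries 4 and 2, where Upk3b is 0.299 and 0.0859 CPM.

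Lists of other cell types also differed between the skin groups. The lists were chosen with earlier results of these data known, so their counts are given as a description. They stand beside 14.1% of all genes tested in skin that were called higher. Of 8 genes of regenerating muscle 7 were called higher, with a median log2 fold change of 4.64. Of 8 adipocyte genes 8 were called higher (median 1.63), of 14 genes of activated fibroblasts 8 (median 0.66) and of 9 genes of fascia fibroblasts 4 (median 0.58), each by edgeR and with 0 lower. The adipocyte calls numbered 6 to 8 in fits without 1 library, where Lipe passed in 3 and Lep in 7 of 12 fits. Those with the smallest p among fibroblast genes were Cthrc1, Fn1, Timp1 and Col3a1 for the activated state and Ly6a, Cd248, Dpt and Clec3b for fascia. Timp1, an inhibitor of matrix proteases, averaged 62.7 ± 40.8 CPM in model skin and 8.42 ± 6.66 CPM in control skin (SD, n = 6 each; edgeR, log2 2.86, BH-adjusted p = 0.00694). Cthrc1, a secreted protein of collagen-producing fibroblasts, averaged 10.9 ± 4.76 CPM in model skin and 2.44 ± 0.838 CPM in control skin (edgeR, log2 2.11, BH-adjusted p = 0.00142).

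The summed level of the regenerating muscle list was 93.1 to 257 CPM in model skin and 28.6 to 88.9 CPM in control skin. The adipocyte list summed to 1559 to 10807 CPM in model skin and 1272 to 1553 CPM in control skin, and the activated fibroblast list to 8599 to 14872 CPM in model skin and 5027 to 7562 CPM in control skin. For fascia fibroblasts it was 889 to 1373 CPM in model skin and 549 to 852 CPM in control skin. The part of these cell types in the level of Msln was not tested. The 7 genes of mature muscle had 0 calls by edgeR, DESeq2 and limma and 1 lower at an unadjusted p under 0.05, with sums of 777 to 8158 CPM in model skin and 1966 to 7221 CPM in control skin. The 5 lung genes summed to 2.52 to 4.36 CPM in model skin and 2.48 to 5.10 CPM in control skin.

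**Figure D4:**
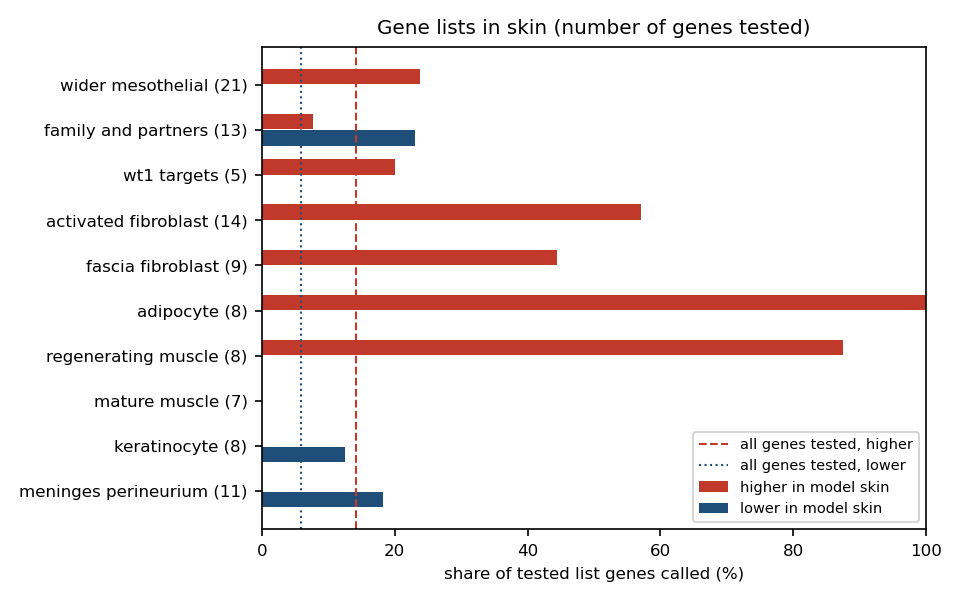
Share of the tested genes of each list (horizontal axis, %) called higher (red) or lower (blue) in model skin than in control skin by edgeR at a BH-adjusted p under 0.05; the number tested stands in brackets, lists with under 5 tested genes are left out, and vertical lines give the shares over all genes tested, 14.1% higher and 5.82% lower. The wider mesothelial list has 5 of 21 higher, while adipocyte genes have 8 of 8 and regenerating muscle genes 7 of 8. The lists were chosen with earlier results of these data known.

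In keratinocyte genes 1 of 8 was called in skin, the cornified envelope gene Ivl, which fell to 118 ± 44.2 CPM in model skin, against 204 ± 65.9 CPM in control skin (SD, n = 6 each; edgeR, BH-adjusted p = 0.0427). Ivl passed in 3 of 12 fits that left out 1 library, and limma called 0 of the 8. Of 11 tested genes of meninges and perineurium 2 were called lower in skin, Cldn1, which passed in all 12 such fits, and Foxc1, which passed in 2. The keratinocyte and meningeal counts stand beside 5.82% of all genes tested in skin that were called lower. The meningeal transporter gene Slc22a6 had 0 counts in all 12 skin libraries. Of the sensory neuron and glial lists, 0 of 3 and 0 of 4 tested genes were called in skin by edgeR, DESeq2 or limma, with 1 neuronal gene lower and 2 glial genes higher at an unadjusted p under 0.05.

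In DRG none of the 8 genes most like Msln was among those of skin, on a ranking of 14179 genes over the 12 DRG libraries that was added after the data were seen. The first 8 were Slc9a2 (r = 0.995), Fzd7 (0.992), Ildr2 (0.990), Thsd4 (0.988), Nt5c1a (0.988), Mpzl2 (0.988), Scara3 (0.986) and Aldh3a1 (0.986). After centring on the group means they were Fzd7 (0.991), Slc9a2 (0.989), Scara3 (0.984), Dapl1 (0.983), Prdm6 (0.982), Ildr2 (0.980), Arsi (0.979) and Thsd4 (0.978). Among listed genes the matrix gene Fn1 ranked 12, Upk1b 15, Prg4 26, Crabp2 30 and Dpp4 37 of all genes before centring. The other members ranked far down, with Wt1 at 5839 (r = 0.15) and Lrrn4 at 9864 (r = -0.21). As in skin, these are correlations over shared libraries.

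Genes of meninges and perineurium, a cell type that a dissected ganglion can carry, formed a list of 12. It was not the only list to move with Msln among the model DRG libraries. Its summed level was 410, 562, 562, 773, 356 and 321 CPM in the model DRG libraries and 399, 342, 273, 276, 350.5 and 529 CPM in the control DRG libraries. The 3 model libraries with the highest sums, 4, 3 and 2, were those with the most Msln, whereas control library 6 had the highest control sum and the second highest control Msln. By edgeR 0 of the 12 were called, with 5 at an unadjusted p under 0.05, all higher (5.6% of all genes tested in DRG), a median log2 fold change of 0.82, and 1 call in DESeq2 and 0 in limma. The gene with that call was Slc47a1, an organic cation transporter, which averaged 56.0 ± 36.1 CPM in model DRG and 12.8 ± 6.38 CPM in control DRG (SD, n = 6 each; edgeR, log2 2.12, approximate SE 0.46, BH-adjusted p = 0.254). Slc22a6, an organic anion transporter, had 4.44, 16.7, 11.2, 23.2, 3.18 and 3.28 CPM in the model DRG libraries and 4.64, 4.04, 1.37, 1.21, 3.48 and 7.92 CPM in the control DRG libraries. Fn1 averaged 478 ± 337 CPM in model DRG and 157 ± 70.7 CPM in control DRG (edgeR, log2 1.59, BH-adjusted p = 0.433). The activated fibroblast list summed to 1924, 2217, 2206, 3153, 1697 and 1346 CPM in the model DRG libraries. The wider mesothelial list summed to 827, 986, 859, 1084, 781 and 719 CPM there. Both lists had the library order of Msln in model DRG, but not in control DRG. The part of meningeal tissue or fibroblasts in the DRG level of Msln was not tested. Model library 4, with the highest sum, had the lowest Wt1 and the lowest Lrrn4 of the model DRG libraries.

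**Figure D5:**
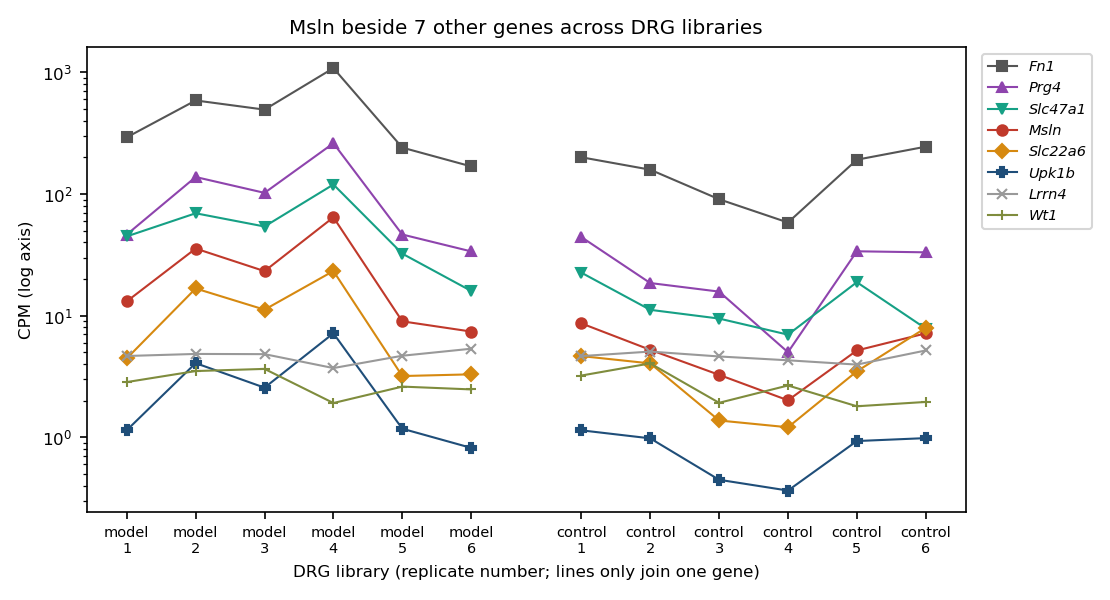
CPM on a logarithmic axis in each of the 12 DRG libraries, model left and control right, for Msln, the wider-list genes Prg4 and Upk1b, the meningeal genes Slc47a1 and Slc22a6, the matrix gene Fn1, and the members Wt1 and Lrrn4; lines only join points of 1 gene, and the genes other than members were picked after their values were seen. Msln peaks at 64.3 CPM in model library 4, where Prg4, Slc47a1, Slc22a6, Upk1b and Fn1 are also highest, while Lrrn4 is 3.70 CPM there.

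In every other cell type list 0 genes were called in DRG by edgeR or limma. The activated fibroblast list had 5 of 14 at an unadjusted p under 0.05, all higher, a median log2 fold change of 0.25 and 1 call in DESeq2, Timp1. The regenerating muscle list, which led the likeness to Msln in skin, summed to 5.12 to 7.87 CPM in model DRG and 5.72 to 8.40 CPM in control DRG, and 0 of its 5 tested genes had an unadjusted p under 0.05 or a call in DESeq2. Of the lists not yet named for DRG, 2 adipocyte genes and 1 fascia fibroblast gene lay higher and 1 glial gene lower at an unadjusted p under 0.05, with 0 for mature muscle, keratinocyte, lung and neuron genes and 0 calls in DESeq2. The 5 sensory neuron genes summed to 4769 to 5836 CPM in model DRG and 5095 to 6803 CPM in control DRG.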

How the data were processed

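Per the submitters' processing notes, the tools were bcl2fastq 2.20.0, Trimmomatic, HISAT2 2.1.0 and StringTie 2.1.3b, with the build GRCm38 (mm10). The sources used here do not give the counting rule or its strand setting. The authors deposited a raw count for each gene, in whole numbers. TPM values, scaled to transcript length and library size, were deposited by the authors and used for levels between genes and in alternatives. FPKM values were also deposited by the authors and were not used.

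Each tissue was fitted alone with edgeR 4.0.16 in R 4.3.3 (filterByExpr, TMM factors of 0.950 to 1.05 in skin and 0.988 to 1.01 in DRG, robust quasi-likelihood F test, no covariates), with BH adjustment over all genes tested and calls at 0.05. SEs are approximate, the absolute log2 fold change divided by the square root of F. Alternatives were DESeq2 1.42.0, RLE size factors, a fit with low genes kept in, genes above 1 CPM in 6 libraries alone, a replicate block, limma 3.58.1 on log2(TPM + 1) and log2(TPM + 0.1), and each library left out in turn. On simulated counts edgeR recovered 60% of genes changed 2-fold and 93% of those changed 4-fold in skin (19526 genes), and 79% and 89% in DRG (19509 genes). False calls were 9 of 162 in skin and 5 of 173 in DRG. The simulation changed 100 genes at each fold, whereas the skin fit called 3892, so its recovery need not hold for these data. Among 60 pairs of libraries within a group none was a duplicate (lowest chi-square per gene 9.13).

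The members and the 13 gene lists (126 genes, all in the table) were chosen with earlier results of these data known. Named genes are the members, all called genes of the wider mesothelial and family lists, up to 4 called genes of each other list by p, and the 8 genes most like Msln (Pearson correlation of log2(CPM + 0.1), leaving out predicted gene models and genes under 1 CPM on average in both groups). Genes named outside that rule were chosen after their values were seen. The labels do not say whether replicates came from separate mice, so the spread behind each p-value is that between these samples and may be technical.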

Additional observations from a re-analysis of the deposited data

Results flagged for a closer look

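Lrrn4 in model skin had 1 library far from the other 5, model library 1 at 0.867 CPM, against 0.0859 to 0.304 CPM in the rest of the group. For normally distributed values the Dixon gap rule used here flags about 1 in 20 groups by chance, and 13 groups of 6 values were examined. Levels from low counts need not follow that distribution, so this rate may not hold here.

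The model effect differed between the tissues for 2 of 18 genes of the wider mesothelial list, in a test of the difference itself by edgeR that called 17.1% of all 17251 genes tested. The test was chosen after the data were seen, and the 2 genes are flagged singly, not as a result for the list. For Upk1b the effect in skin minus that in DRG was -3.68 on the log2 scale (BH-adjusted p = 0.00791), and for Cldn15 it was 1.60 (BH-adjusted p = 0.00472).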

How the results depend on the processing

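No pairing by the numbers of the labels was seen. Correlations of same-numbered model and control libraries were -0.545 to 0.302 in skin and -0.507 to -0.0387 in DRG, and 0 libraries correlated best with their own number. So few correlations cannot show that the libraries were unpaired. Against 1137 genes called lower in skin, DESeq2 called 2248, no filter 747, the replicate block 540, limma 460 with a pseudocount of 1 and 449 with 0.1, and fits without 1 library 308 to 2554, with 308 without model library 4 and 2554 without control library 2. Genes called higher in skin were 2141 to 3724 without 1 library. In the wider mesothelial list of skin, genes called higher were 3 to 6 and lower 0 to 2 without 1 library, and DESeq2 called 1 lower. The log2 fold change of Msln in skin was 2.72 by limma with a pseudocount of 1, on the log2(TPM + 1) scale, which understates the change of low values, and 4.48 with 0.1. Against 19 genes called higher in DRG, DESeq2 called 127, the filter of at least 1 CPM 12, the replicate block 6 and fits without 1 library 11 to 34. Against 0 lower, DESeq2 called 15 and fits without 1 library 0 to 2. Of 8 adipocyte genes called higher in skin, 5 were called with the replicate block. In the wider list of DRG, DESeq2 called 1 higher. The DRG log2 fold change of Msln was 2.26 in DESeq2 as in edgeR, now past the threshold (BH-adjusted p = 0.0149), and 1.91 with the replicate block. That of Lrrn4 changed sign about 0, at -0.00038 with the replicate block and -0.0427 to 0.0618 without 1 library. The causes of these differences were not tested. The others, 76 values under other settings and 133 without 1 library, kept their direction, or for counts stayed within 1.5 times. Among them the DRG fold changes also kept their side of the threshold, while the skin fold changes of members carried no test. Depth limits Wt1 and Lrrn4 in skin, Upk3b in DRG and Muc16 in both tissues, which did not pass the filter and have no value in the edgeR fits that use it, apart from Lrrn4 in 4 fits without 1 library (log2 1.55 to 1.82). Without the filter the skin log2 fold change was 3.58 for Wt1 and 1.61 for Lrrn4, and in DESeq2 3.63 and 1.61. Upk3b has no skin value under the filter of at least 1 CPM.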
